A study of Mus musculus with 3 samples.

Results

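Lung of mice irradiated in FLASH mode, delivery of the whole dose at an ultra-high rate, was set against lung of mice that were not irradiated (NI), by droplet single-cell RNA sequencing. Each group was 1 library. Barcodes were kept if 200 or more genes were detected and no more than 10% of their unique molecular identifiers (UMIs) were mitochondrial, and barcodes with at least 1 UMI of the lymphocyte-precursor genes Rag1, Rag2, Dntt or Ptcra were dropped. This left 3547 of the 6662 barcodes of the series, 1258 from NI and 2289 from FLASH. The animals of both groups were C57BL/6 females of 10 to 12 weeks. FLASH lungs had received 17 Gy to the thorax from 4.5 MeV electrons under isoflurane. The conventional-mode library (CONV, the same 17 Gy, 2424 kept barcodes) is quoted for single levels only. The sources used here do not give how many mice were pooled per library, how long after irradiation the lungs were dissociated, or the hour of collection.

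Ionising radiation breaks DNA, and the damage stabilises the transcription factor p53, which switches on genes that halt the cell cycle, repair DNA or kill the cell. In the lung the alveolar type 2 (AT2) cell, which makes surfactant and renews the epithelium, and the capillary endothelial cell are both known targets of thoracic irradiation, and circulating lymphocytes are among the most radiosensitive cells of the body. Ptprc encodes CD45, the surface phosphatase of nearly all blood-derived cells other than red cells and platelets, so a UMI of Ptprc separates leukocytes from epithelium, endothelium and stroma, although a leukocyte sequenced to low depth may show none.

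The NI library stood apart in ways that touch several results. The precursor filter removed 470 NI and 7 FLASH barcodes. A cluster of T lineage barcodes with Ccr9, Itm2a and Tox among its genes passed the filter, kept no name (cluster 12) and held 68 NI and 2 FLASH barcodes. Genes of thymic epithelium (Foxn1, Psmb11, Prss16, Ccl25, Tbata, Aire), a list added after the data had been seen, had 660 UMIs in NI, of which 606 lay in 2 barcodes, and 62 in FLASH, where 3 of the 6 genes were at 0. Keratins of basal and squamous epithelium, also added afterwards, had 594 UMIs in NI and 35 in FLASH, and 509 of the NI UMIs lay in 4 barcodes. Where the barcodes that held these genes came from was not tested. Results are therefore also given without cluster 12 and without barcodes with at least 5 UMIs of either list, which took out 78 NI and 3 FLASH barcodes.

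Kept UMIs totalled 4649050 in NI and 5313696 in FLASH. The median depth per barcode was 2721 in NI and 1801 in FLASH, and 6 kept barcode sequences occurred in both libraries. The 8 AT2 markers summed to 53059 per 1000000 UMIs in NI and 58534 in FLASH and none of them was at 0. Among Ptprc 0 barcodes, 47.4% in NI and 37.8% in FLASH carried at least 2 UMIs of 5 other leukocyte genes, so Ptprc 0 was not free of leukocytes. Levels are in CPM, the UMIs of a gene per 1000000 UMIs summed over the barcodes named. Brackets hold 95% intervals that cover counting error only. With 1 library per group no difference was tested, and counting intervals say nothing of the spread between animals, dissociations or loadings.

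The FLASH suspension held a smaller share of leukocytes. Ptprc was detected in 564 of 1258 NI barcodes (44.8%) and in 664 of 2289 FLASH barcodes (29.0%), a difference of -15.8 points (-19.1 to -12.5). After thinning every barcode to 1000 UMIs, which left out 10 shallower FLASH barcodes, the shares were 23.8% and 20.5% and the difference was -3.23 points (-6.15 to -0.392). The order was the same, and the gap was smaller at equal depth.

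Barcodes were clustered and named "like" a cell type from its markers. B-like barcodes, the antibody lineage, had the largest gap of any named class, at 16.8% of NI and 5.94% of FLASH barcodes. T-like barcodes were 19.6% and 14.8%, and innate-like and gamma delta lymphocyte-like barcodes were 3.34% and 1.05%. The T-like gap was not uniform when clusters were made on 2000 variable genes. There a T-like cluster led by Itm2a and Ccr9 held 171 NI and 17 FLASH barcodes. Another, led by Dapl1, Cd8b1 and Il7r, held 101 of 1258 NI and 242 of 2289 FLASH barcodes. Monocyte and macrophage classes had higher shares in FLASH. Classical monocyte-like barcodes were 1.91% of NI and 5.64% of FLASH, alveolar macrophage-like barcodes 5.25% and 8.82%, and interstitial macrophage-like barcodes 1.99% and 3.63%. Conventional dendritic 2-like barcodes, cells that present antigen to helper T cells, were 3.66% and 1.75%, and neutrophil-like barcodes 0.795% and 0.743%.

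Among classes outside the blood lineage, capillary endothelial-like barcodes made up 21.5% in NI and 12.8% in FLASH, a difference of -8.73 points (-13.5 to -4.34). Ciliated-like barcodes were 5.25% and 10.5% of the same total. AT2-like barcodes were 31.0% and 35.8%, and the interval of their difference held 0 (4.84 points, -0.743 to 10.2). The share of alveolar fibroblast-like barcodes also differed by less than its counting interval (21.3% and 22.9%). Unnamed clusters are not in these totals. Among them, cluster 5 scored highest for adventitial fibroblast markers and next for alveolar fibroblast markers. It made up 2.78% of all kept NI barcodes and 8.65% of all kept FLASH barcodes. Shares within a suspension depend on dissociation and loading, and a lower share of one class raises all others.

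**Figure D1:**
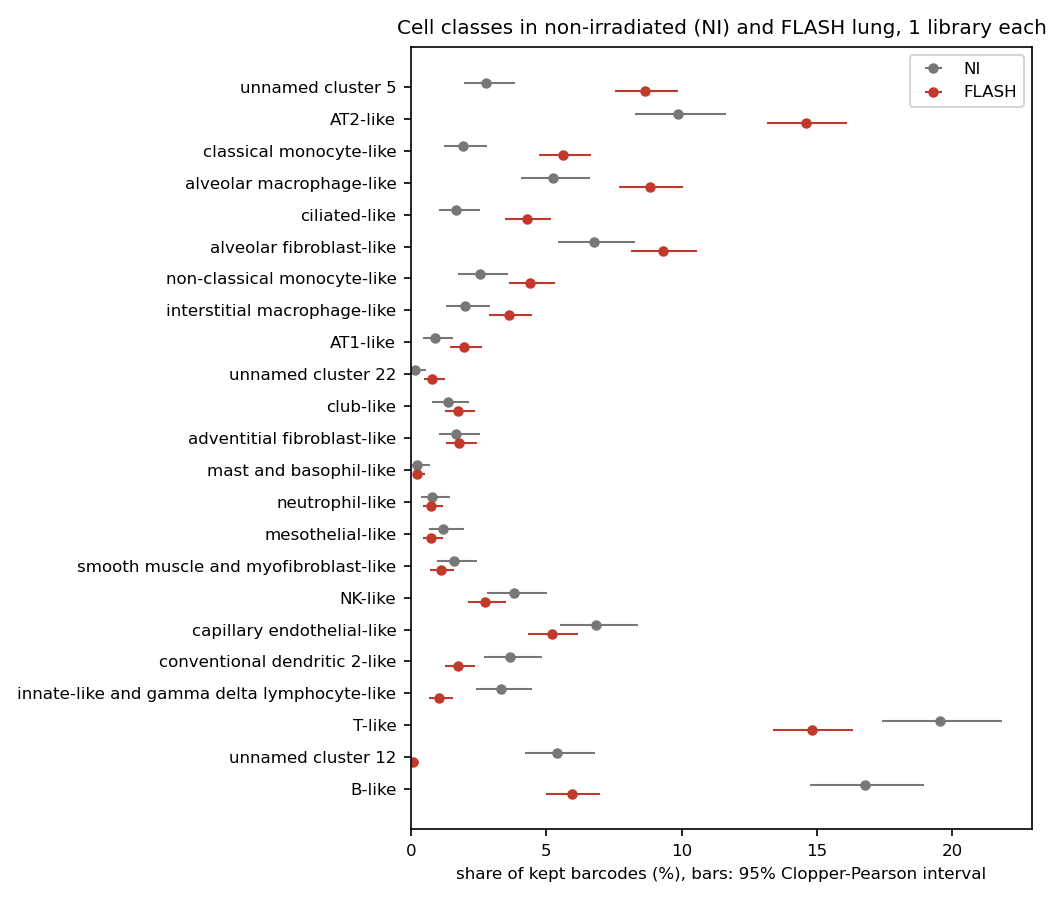
Share of kept barcodes (x axis, %) in each class or unnamed cluster (y axis), ordered by the FLASH minus NI difference; points are 1 library each, grey NI and red FLASH, with 95% Clopper-Pearson bars. B-like barcodes (16.8% and 5.94%) and unnamed cluster 12 (68 and 2 barcodes) lie furthest to the NI side, unnamed cluster 5 (35 and 198 barcodes) and AT2-like barcodes to the FLASH side.

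Over all kept barcodes 12104 genes had at least 30 UMIs in both libraries together. Of these, 478 (3.95%) were at least 2-fold higher in FLASH and 494 (4.08%) at least 2-fold lower (8.03% in either direction), around a median log2 ratio of -0.01. In Ptprc-positive barcodes the counts were 335 of 8162 (4.10%) higher and 431 (5.28%) lower, 9.38% in either direction. In Ptprc 0 barcodes they were 489 of 11264 (4.34%) higher and 371 (3.29%) lower, 7.63% in either direction. Fixed cluster weights, used below as a second reading, gave each cluster the same weight in both libraries and left out clusters with fewer than 10 barcodes in either. They covered 22 of 25 clusters over all barcodes (clusters 10, 12 and 22 dropped), 10 in Ptprc-positive and 18 in Ptprc 0 barcodes, so they changed both the mix and the barcodes that entered. With them 141 genes were higher and 238 lower over all barcodes in place of 478 and 494. Fewer cells of a type and less RNA per cell cannot be told apart in the sums over all barcodes, and the values within classes below are free of the first only as far as the class names hold.

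The 10 highest and 10 lowest genes differed in how many barcodes carried them. Cebpb, Dbp and Hivep2 were carried widely, by 13.3%, 9.06% and 4.21% of NI barcodes and by 48.4%, 23.5% and 10.5% of FLASH barcodes. Arhgdig went from 12 to 99 barcodes (3.87 and 47.0 CPM, 12.2-fold, 7.53 to 20.8), and was 6.02-fold higher with fixed cluster weights. Aoc1, the diamine oxidase that breaks down histamine, was carried by 10 and 63 barcodes (2.84-fold with those weights), and Id4, an inhibitor of helix-loop-helix factors, by 6 and 44. By contrast, 96.0% of the FLASH UMIs of Camp and 96.9% of those of Ngp, both neutrophil granule proteins, came from 3 barcodes.

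All 10 lowest genes over all barcodes were carried by 1 to 16 NI barcodes. Ubd, Krt17, Ppp1r27, Egr4 and Csn2 were at 0 in FLASH, with 186, 118, 54, 45 and 34 UMIs in NI. Tbata, a gene of thymic epithelium, had 330 UMIs in NI and 16 in FLASH, and 95.8% of the NI UMIs came from 3 barcodes. Its ratio was 0.0424 as counted and 0.832 without cluster 12 and the thymic or keratin barcodes. Tbata is itself on the list by which barcodes were removed, so a rise of its ratio was built into that removal. Clca1 stayed low without them, at 0.014-fold. Ubd, Krt17, Avp, Krt5, Ppp1r27, Egr4, Krt15 and Csn2 then had too few UMIs left to be measured. Whether those genes were lower in FLASH outside the removed barcodes therefore cannot be read here. Krt5 and Krt15, keratins of basal epithelium, had 92.4% and 92.3% of their NI UMIs in 3 barcodes. Clca1 and Csn2 were each carried by 1 NI barcode.

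**Figure D2:**
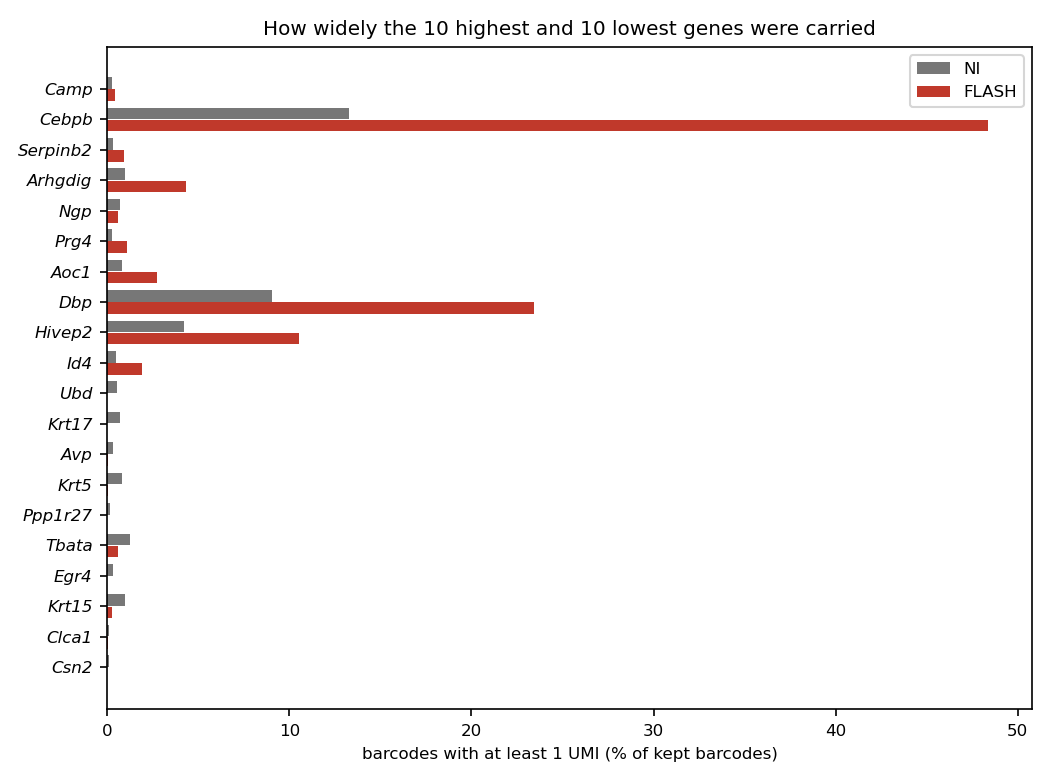
Percent of kept barcodes with at least 1 UMI (x axis) for the 10 genes highest and the 10 lowest in FLASH over all kept barcodes (y axis, in rank order), grey NI and red FLASH, 1 library each. Cebpb (13.3% and 48.4%), Dbp and Hivep2 stand out as widely carried, while the 10 lowest genes sit near 0 in both libraries.

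Cebpb, which encodes a basic leucine zipper factor of inflammatory and acute-phase genes, was higher in FLASH in every population. It had 87.1 CPM in NI and 789.7 in FLASH (9.06-fold, 8.18 to 10.1), and 943 in CONV. The ratio was 9.43 (8.34 to 10.7) in Ptprc-positive and 12.9 (10.7 to 15.7) in Ptprc 0 barcodes. With fixed cluster weights it was 5.51 over all, 4.35 in Ptprc-positive and 6.85 in Ptprc 0 barcodes. Cebpb was higher in FLASH in each of the 8 classes with at least 40 barcodes in both libraries. In alveolar fibroblast-like barcodes it had 57.1 and 735 CPM (12.9-fold, 7.77 to 22.9). In AT2-like barcodes the levels were 11.1 and 108 (9.70-fold, 4.94 to 21.7). In T-like barcodes they were 8.55 and 112 (13.1-fold, 5.68 to 37.1).

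Alveolar macrophage-like barcodes were the class with the highest Cebpb level in NI, 1078 CPM, and with the smallest ratio, 1.94 (1.69 to 2.24). In conventional dendritic 2-like barcodes NI had no UMI and FLASH had 30, which is at least 24.1-fold higher with 3 counts as the floor per library. B-like, NK-like and capillary endothelial-like barcodes had 2, 1 and 2 NI UMIs against 37, 19 and 25 in FLASH, with ratios of 40.7 (10.5 to 349), 21.8 (3.46 to 905) and 14.5 (3.62 to 126). The rest of the family showed smaller ratios over all barcodes. Cebpa, the granulocyte and hepatocyte paralogue, was 1.87-fold higher (1.60 to 2.19), Cebpg 1.76-fold (1.47 to 2.11), Cebpz 1.11-fold (0.926 to 1.34) and Ddit3, the stress-induced member, 0.929-fold (0.753 to 1.15). Of 5 measured members, 1 was past 2-fold higher (background 3.95%), Cebpb itself, and 0 lower (background 4.08%), and the median log2 ratio was 0.81 beside -0.01 over all genes.

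Genes known as p53 targets were mostly higher in FLASH. Of 30 listed genes 28 were measured over all barcodes, 8 were at least 2-fold higher (background 3.95%) and 0 at least 2-fold lower (background 4.08%), with a median log2 ratio of 0.78, and 0.71 with fixed cluster weights. Among cell-cycle members, Cdkn1a, the inhibitor p21 that arrests the cycle, had 189 CPM in NI and 630.1 in FLASH (3.34-fold, 3.10 to 3.60). Ccng1, cyclin G1, had 40.0 and 119 (2.96-fold, 2.51 to 3.51). Btg2, an antiproliferative factor, had 699 and 666 (0.953-fold, 0.908 to 1.00).

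Among members tied to survival and death, Phlda3, a repressor of Akt signalling, had 60.9 CPM in NI and 188 in FLASH (3.09-fold, 2.70 to 3.54). Bax, which permeabilises mitochondria, had 157 and 271 (1.73-fold, 1.58 to 1.89), and Aen, an apoptotic nuclease, 15.5 and 35.8 (2.31-fold, 1.75 to 3.07). Pmaip1, encoding the death protein Noxa, was the lowest member at 61.7 and 32.6 (0.527-fold, 0.434 to 0.639), and Fas, the death receptor, had 51.0 and 48.0. Gdf15, a secreted stress factor, had 9.46 and 41.4 (4.37-fold, 3.15 to 6.19), and Sesn2, a stress sensor, 5.81 and 19.0 (3.27-fold, 2.12 to 5.21). Eda2r had 1 UMI in NI and 29 in FLASH (25.4-fold, 4.21 to 1036). Mdm2, whose product degrades p53, was 1.62-fold higher (1.36 to 1.94). Cdkn1a and Phlda3 had 586 and 188 CPM in CONV.

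**Figure D3:**
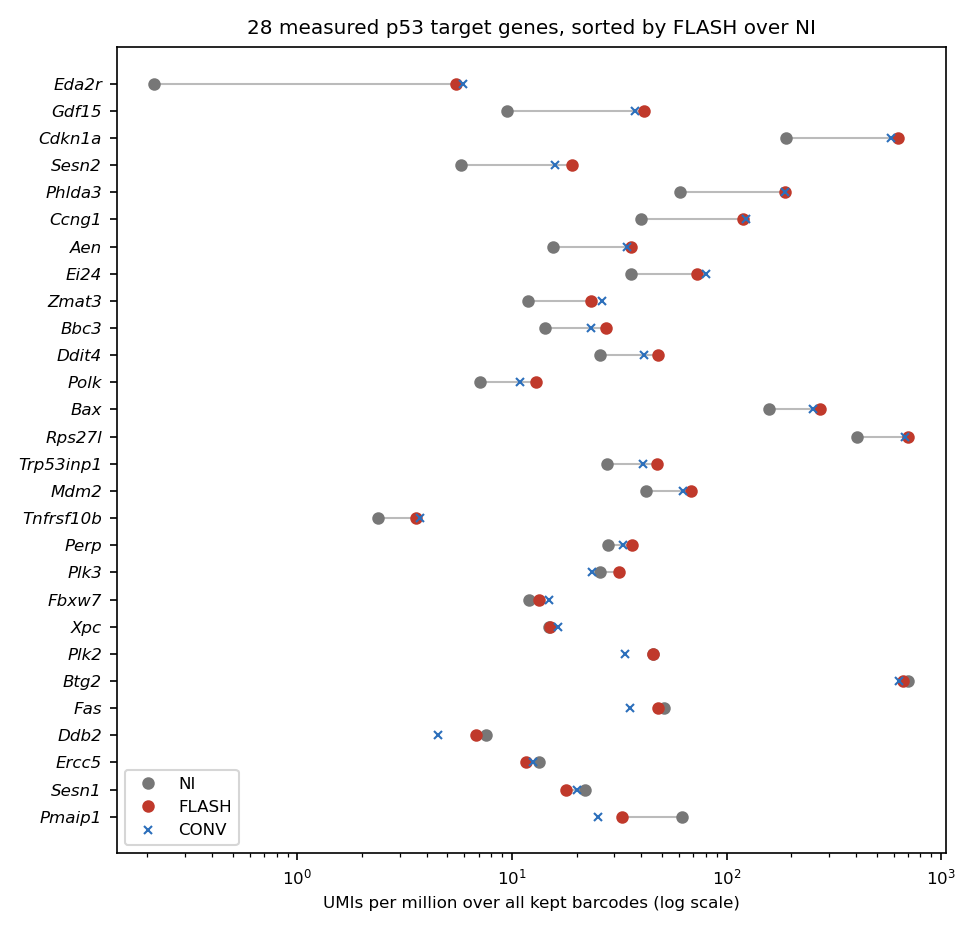
CPM over all kept barcodes (x axis, log scale) of the 28 measured p53 target genes (y axis, ordered by FLASH over NI): grey dots NI, red dots FLASH, blue crosses CONV, 1 library each. Red lies right of grey for 21 genes, with Eda2r (1 and 29 UMIs), Gdf15 and Cdkn1a at the top and Pmaip1 at the bottom.

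The promoter sequences of 22 of these 30 genes were found in RefSeq (GRCm38.p6), and 9 genes (Aen, Bax, Ccng1, Cdkn1a, Ei24, Mdm2, Polk, Rps27l, Sesn1) had a match to the p53 half-site in the 250 bases before a start site, against 7.13% of all 32851 promoter entries of that length. The count is of genes with a match at any listed start and the percentage of single entries, so they are unlike units. A half-site is its own reverse complement in pattern, so both strands are covered. The 250 bases before the start are shown for Cdkn1a (1 of 2 listed starts) and Ccng1, 2 of the members highest in FLASH, 5′ to 3′ on the gene's strand, with half-site matches in capitals. In Cdkn1a they begin 73 and 51 bases before the start, and in Ccng1 185 bases before it. A match describes letters and shows no binding.
Cdkn1a, chr17:29090729-29090978 (+): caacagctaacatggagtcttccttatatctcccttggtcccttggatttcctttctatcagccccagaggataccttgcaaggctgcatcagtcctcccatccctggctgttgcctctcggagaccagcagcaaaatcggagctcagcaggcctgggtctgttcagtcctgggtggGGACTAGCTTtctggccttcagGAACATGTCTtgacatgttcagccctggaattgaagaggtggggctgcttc
Ccng1, chr11:40755287-40755536 (-): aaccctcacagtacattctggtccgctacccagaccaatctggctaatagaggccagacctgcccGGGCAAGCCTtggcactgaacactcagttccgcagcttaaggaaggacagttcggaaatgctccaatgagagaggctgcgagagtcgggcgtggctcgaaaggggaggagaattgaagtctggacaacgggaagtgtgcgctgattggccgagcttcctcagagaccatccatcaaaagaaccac

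By class, the p53 list had its highest median in AT2-like barcodes, where 10 of 16 measured members were at least 2-fold higher (background 3.27%), 0 at least 2-fold lower (background 1.68%), and all 16 ratios were above 1, with a median log2 ratio of 1.62 beside -0.02 for all genes. Phlda3 had 4 UMIs in NI and 137 in FLASH (4.94 and 127 CPM, 25.8-fold, 9.84 to 95.9). Ccng1 had 14.8 and 164 CPM (11.1-fold, 6.2 to 21.9), and Cdkn1a 84.0 and 522 (6.22-fold, 4.83 to 8.12). Gdf15, Aen and Plk2, a kinase of the stress response, were 6.77-fold, 5.12-fold and 3.99-fold higher.

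In capillary endothelial-like barcodes 6 of 10 measured members were at least 2-fold higher (background 4.49%) and 1 at least 2-fold lower (background 6.46%), with a median log2 ratio of 1.37. Gdf15 had 0 UMIs in NI and 47 in FLASH, at least 18.2-fold higher with 3 counts as the floor for NI. Cdkn1a was already at 858 CPM in NI and stood at 2368 in FLASH (2.76-fold, 2.34 to 3.26). Fas was the member on the lower side, with 382 and 148 (0.387-fold, 0.249 to 0.586). Capillary barcodes thus started from the highest Cdkn1a level of the 8 classes, and alveolar fibroblast-like and T-like barcodes from low ones.

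In alveolar fibroblast-like barcodes 5 of 12 members were past 2-fold higher (background 3.38%) and 0 lower (background 2.13%), with a median of 0.97. Cdkn1a led with 42.8 and 749 CPM (17.5-fold, 9.85 to 34.3), followed by Trp53inp1, a p53 cofactor (3.87-fold, 1.58 to 11.4), and Ei24 (2.91-fold, 1.47 to 6.30). In alveolar macrophage-like barcodes 3 of 12 were higher (background 2.49%) and 0 lower (background 1.89%), median 0.64, with Cdkn1a at 374 and 1115 (2.98-fold, 2.37 to 3.79) and Phlda3 at 55.9 and 191 (3.41-fold, 1.89 to 6.68).

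The lymphoid and dendritic classes had 4 to 11 measured members. In T-like barcodes 1 of 11 members was past 2-fold higher (background 1.63%) and 0 lower (background 5.41%), with a median of 0.20, and Cdkn1a had 28.5 and 56.0 CPM (1.96-fold, 1.08 to 3.65). In B-like barcodes 3 of 8 were higher (background 2.55%) and 2 lower (background 4.82%), median 0.74, and in NK-like barcodes 1 of 4 was higher (background 2.82%) and 0 lower (background 4.40%), median 0.18. In conventional dendritic 2-like barcodes 1 of 5 was higher (background 3.30%) and 0 lower (background 7.56%), median -0.09, and Cdkn1a had 404 and 1009 (2.5-fold, 1.91 to 3.27). Whether classes differed in the size of the p53 response was not tested.

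**Figure D4:**
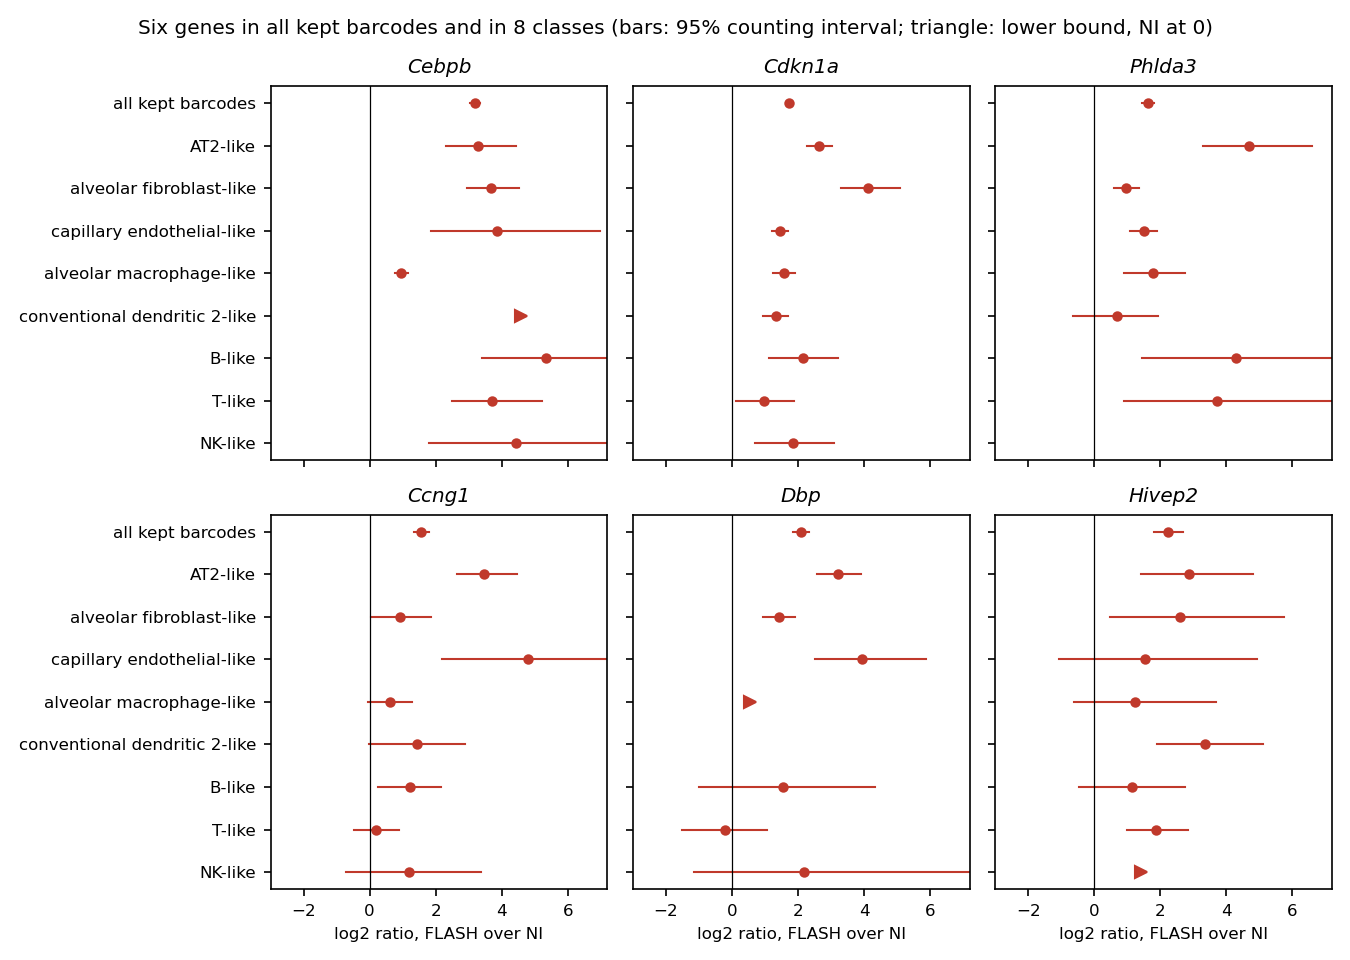
Log2 ratio of FLASH over NI (x axis) of Cebpb, Cdkn1a, Phlda3, Ccng1, Dbp and Hivep2 in all kept barcodes and in 8 classes (y axis), with 95% counting intervals that are drawn to the axis limits; triangles mark lower bounds where NI had 0 UMIs, and genes with 3 or fewer UMIs in both libraries are left out. Cebpb and Cdkn1a lie right of 0 in all 8 classes, while Dbp is higher in the AT2-like, alveolar fibroblast-like and capillary endothelial-like classes and not in the T-like class.

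Genes of the circadian clock, the daily transcription loop in which Bmal1 and Clock activate repressors and output factors, differed in both directions. Of 19 genes 18 were measured over all barcodes, 4 were at least 2-fold higher (background 3.95%) and 1 at least 2-fold lower (background 4.08%), with a median log2 ratio of 0.55, and 0.28 with fixed cluster weights. Dbp, an output factor of the loop, had 175 UMIs in NI and 854 in FLASH (37.6 and 161 CPM, 4.27-fold, 3.62 to 5.05). Its relative Tef was 3.05-fold higher (2.41 to 3.88), and of the repressors Per3 was 2.84-fold (2.26 to 3.59) and Ciart 2.78-fold (1.38 to 6.08) higher. Arntl, the gene of Bmal1, was the member on the lower side, with 10.8 and 4.89 CPM (0.455-fold, 0.272 to 0.745).

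Other clock genes lay between these ends. Per1 was 1.34-fold (1.07 to 1.67), Nr1d1, the repressor Rev-erb alpha, 1.49-fold (1.25 to 1.79), Clock 0.944-fold (0.736 to 1.21) and Cry1 0.863-fold (0.613 to 1.21) of NI. Dbp was 9.20-fold higher in AT2-like (5.95 to 14.9), 15.4-fold in capillary endothelial-like (5.66 to 58.5) and 2.66-fold in alveolar fibroblast-like barcodes (1.91 to 3.77), but 0.873-fold in T-like barcodes (0.351 to 2.08). In CONV, Dbp, Tef and Per3 had 161, 54.5 and 65.6 CPM. Collection hour and group cannot be told apart here.

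The RefSeq promoters of Tef and Per3 are shown because both genes were higher with Dbp and each held a clock motif in the 250 bases before a start site. Capitals mark the E-box CACGTG, the element bound by Clock and Bmal1, in Tef. Both listed starts of Tef held 1 E-box, and 1 of these 2 starts is shown. In Per3 capitals mark the D-box TTATGTAA, the element bound by Dbp and its relatives, which occurs 2 times. Searched on both strands, the E-box was present in 6.02% and the D-box in 0.819% of all promoter entries. Of the 16 clock genes found in RefSeq, 5 held the E-box (Bhlhe41, Ciart, Cry1, Per1, Tef) and 1 the D-box. These are counts of genes with a match at any listed start, while the percentages are of single entries.
Tef, chr15:81811164-81811413 (+): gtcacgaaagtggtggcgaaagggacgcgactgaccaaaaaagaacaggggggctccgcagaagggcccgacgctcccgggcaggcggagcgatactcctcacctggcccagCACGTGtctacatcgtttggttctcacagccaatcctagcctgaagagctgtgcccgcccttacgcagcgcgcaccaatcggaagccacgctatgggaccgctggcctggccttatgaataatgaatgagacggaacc
Per3, chr4:151044666-151044915 (-): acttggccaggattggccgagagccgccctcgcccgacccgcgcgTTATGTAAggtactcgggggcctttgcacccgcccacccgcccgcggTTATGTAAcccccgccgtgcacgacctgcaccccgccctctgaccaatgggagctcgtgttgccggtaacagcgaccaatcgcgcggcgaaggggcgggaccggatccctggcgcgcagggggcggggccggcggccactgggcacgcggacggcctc

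Within Ptprc-positive barcodes, cytokine and acute-phase genes were among the highest. Il6, the fever and acute-phase cytokine, had 9 UMIs in NI and 136 in FLASH (4.88 and 94.9 CPM, 19.5-fold, 9.96 to 43.5), carried by 6 and 19 barcodes. Saa3, an acute-phase protein, had 22 and 235 (13.8-fold, 8.88 to 22.4) in 1 and 10 barcodes, and Prg4, lubricin, 10 and 113 (14.6-fold, 7.63 to 31.2) in 1 and 12 barcodes. Serpinb2, a serine protease inhibitor of activated macrophages, Ccl24, an eosinophil chemokine, and Cxcl1, a neutrophil chemokine, were 25.5-fold, 14.2-fold and 9.27-fold higher. These ratios hold for this gate only. Over all kept barcodes Il6 had 120 UMIs in NI and 250 in FLASH (1.82-fold) and Saa3 123 and 414 (2.94-fold). Prg4 was 5.72-fold and Serpinb2 18.5-fold higher there. Saa3, Prg4, Serpinb2, Il6 and Ccl24 were all among the 10 leading genes of unnamed cluster 22, which held 2 NI and 18 FLASH barcodes. These genes were thus carried by small numbers of barcodes. With fixed cluster weights, which drop cluster 22 and other small clusters here, the ratios were 2.31 for Il6, 1.49 for Saa3, 0.768 for Prg4, 2.74 for Serpinb2, 2.05 for Ccl24 and 2.38 for Cxcl1. CONV had 13.1, 38.2 and 49.3 CPM of Il6, Saa3 and Cxcl1.

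The list of inflammatory genes lay mostly above the NI level as counted. Of 21 measured inflammatory genes in Ptprc-positive barcodes, 6 were at least 2-fold higher (background 4.10%) and 0 at least 2-fold lower (background 5.28%), with a median log2 ratio of 0.49. Cxcl2, a neutrophil chemokine, had 321 and 877 CPM (2.73-fold, 2.48 to 3.02), Ccl6 1052 and 2525 (2.40-fold, 2.27 to 2.54) and Ccl7, a monocyte chemokine, 66.6 and 236 (3.54-fold, 2.87 to 4.39). Ccl7 was carried by 17 NI and 36 FLASH barcodes, and 3 barcodes of each library held 61.0% and 47.0% of its UMIs. Tnf had 39.5 and 36.3 CPM. Monocyte-like and macrophage-like shares were higher in FLASH as given above, and with fixed cluster weights, over 10 clusters without cluster 22, the list median was -0.04. The part of the mix and that of the dropped clusters in this difference cannot be told apart from this value.

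Inside the alveolar macrophage-like class the list lay on the other side. Of 16 measured members 7 were at least 2-fold lower in FLASH (background 1.89%) and 1 at least 2-fold higher (background 2.49%), with a median log2 ratio of -0.96. Cxcl2 had 1280.3 and 515 CPM (0.402-fold, 0.336 to 0.481), and Il1b, the inflammasome cytokine, 296 and 127 (0.429-fold, 0.294 to 0.621). Tnfaip3, a brake on NF-kB, had 133 and 61.2 (0.459-fold, 0.262 to 0.799). Ccl6, the most abundant member, had 7282 and 8464, and Icam1, an adhesion molecule, was the member on the higher side with 4 and 28 UMIs (3.83-fold, 1.34 to 15). The same class had lower Stmn1, Hmgb2 and H2afv, genes of dividing cells (0.131-fold, 0.303-fold and 0.291-fold), and higher Malat1, a nuclear RNA (1.96-fold, 1.88 to 2.03).

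Genes of mature dendritic cells and of developing T cells were among the lowest in Ptprc-positive barcodes. Ccl22, Fscn1 and Ccl17, products of mature dendritic cells, had 94, 82 and 376 UMIs in NI and 0, 1 and 18 in FLASH, carried by 13, 8 and 15 NI barcodes. For Ccl17, 83.2% of the NI UMIs in this gate came from 3 barcodes. Over all kept barcodes no conventional dendritic 2 marker, a list that includes Ccl17, had a log2 ratio below -1.14. The 0 of Ccl22 holds for this gate only. Over all kept barcodes Ccl22 had 262 UMIs in NI and 76 in FLASH (0.254-fold), carried by 23 and 9 barcodes. Ccr9 and Itm2a, expressed by developing T cells, had 140 and 380 UMIs in NI and 8 and 20 in FLASH, a ratio of 0.0736 (0.0312 to 0.149) and 0.0678 (0.0410 to 0.106). Without cluster 12 and the thymic or keratin barcodes those ratios were 0.273 and 0.162. Both genes are among the leading genes of cluster 12, so a rise of their ratios was built into that removal. Of 13 measured genes of the residual thymocyte list 9 were past 2-fold lower (background 5.28%) and 0 higher (background 4.10%) in Ptprc-positive barcodes, with a median log2 ratio of -1.73, and -1.22 without those barcodes. Scgb3a1, Reg3g and Bpifa1, secretory proteins of the airway, were 26.0-fold, 22.6-fold and 10.7-fold higher, but 95.3%, 98.1% and 94.2% of their FLASH UMIs came from 3 barcodes.

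In Ptprc 0 barcodes the highest genes after Cebpb included Gdf15, with 16 UMIs in NI and 156 in FLASH (5.71 and 40.2 CPM, 7.04-fold, 4.20 to 12.6), carried by 13 and 96 barcodes. Arhgdig had 12 and 229 (13.8-fold, 7.74 to 27.1, and 5.97-fold with fixed cluster weights), and Hivep2, a zinc finger factor, 27 and 187 (5.0-fold, 3.33 to 7.79). Ccl12, a monocyte chemokine, had 25 and 329 (9.50-fold, 6.32 to 14.9), and Adgre4, a receptor of monocytes and macrophages, 1 and 34 (24.6-fold, 4.12 to 998). With fixed cluster weights these ratios were 5.30 and 1.93, and myeloid classes were 8.36% of NI and 15.3% of FLASH barcodes of this gate. With Ptprc 0 restricted to barcodes with at most 1 UMI of the 5 leukocyte genes (365 NI, 1011 FLASH), the log2 ratio of Gdf15 was 3.39 in place of 2.82 and that of Cebpb 3.29 in place of 3.69. Ngp and Camp were 257-fold and 61.7-fold higher on 1 and 2 NI UMIs, and 97.5% and 97.1% of the FLASH UMIs came from 3 barcodes. Their ratios were 4.48 and 2.05 with fixed cluster weights.

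Antigen-presentation genes were lower in FLASH over all barcodes, but not in every class. All 11 genes of MHC class II, which display peptides to helper T cells, were below 1 over all barcodes, with 3 at least 2-fold lower (background 4.08%), 0 at least 2-fold higher (background 3.95%) and a median log2 ratio of -0.80. Cd74, the invariant chain, had 7089 and 3601 CPM (0.508-fold, 0.499 to 0.517), and the class II chain H2-Aa 1616 and 874 (0.541-fold, 0.521 to 0.561). The 3 genes past 2-fold were H2-DMb2, H2-Oa and H2-Ob (0.347-fold, 0.351-fold and 0.365-fold), which B cells express. B-like barcodes were fewer in FLASH as given above, and with fixed cluster weights the list median was -0.26.

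Within classes the lowest class II median was that of capillary endothelial-like barcodes, where all 6 measured genes were at least 2-fold lower (background 6.46%) and 0 higher (background 4.49%), with a median log2 ratio of -1.52. There Cd74 had 2423 and 796 CPM (0.328-fold, 0.275 to 0.391), H2-Ab1 661 and 267 (0.403-fold, 0.292 to 0.550) and H2-DMa 127 and 33.4 (0.262-fold, 0.0973 to 0.606). In AT2-like barcodes the median over 6 genes was -0.49, in B-like barcodes -0.39 over 9 genes and in conventional dendritic 2-like barcodes -0.03 over 9 genes, with none past 2-fold in those 3 classes. In NK-like barcodes both measured genes were past 2-fold higher (background 2.82%), with a median of 2.19 and a summed level of 226 and 1106 CPM. In alveolar fibroblast-like barcodes the 2 measured genes had a median of 0.21. MHC class I genes, expressed by nearly all cells, had a median of -0.70 over 15 genes in all barcodes, with 3 past 2-fold lower (background 4.08%) and 0 higher (background 3.95%). In capillary endothelial-like barcodes 5 of 13 class I genes were past 2-fold lower and 0 higher, with a median of -0.79.

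Endothelial genes within the capillary class lay on both sides of the NI level. Of 15 measured genes of the endothelial list 1 was at least 2-fold higher (background 4.49%) and 2 at least 2-fold lower (background 6.46%), a number near the background, with a median log2 ratio of -0.52. Vcam1, the leukocyte adhesion molecule, had 468 and 1110.1 CPM (2.37-fold, 1.89 to 2.99). Tek, the angiopoietin receptor, was 0.457-fold (0.284 to 0.718) and Sox17, an arterial factor, 0.438-fold (0.248 to 0.745) of NI, while Cldn5 and Cdh5, junction proteins, were 0.741-fold and 0.612-fold. Lpl, lipoprotein lipase, was 0.235-fold. The class joins 2 clusters, the larger with some lymphatic endothelial marker signal (70 NI and 105 FLASH barcodes), the smaller with 16 and 14.

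Surfactant transcripts of AT2-like barcodes lay near the NI level. Of 17 genes of AT2 function 0 were past 2-fold in either direction (backgrounds 3.27% and 1.68%), with a median log2 ratio of -0.12. Sftpc, surfactant protein C, was 0.920-fold (0.914 to 0.925), Sftpa1 1.02-fold (1.00 to 1.04) and Abca3, the surfactant lipid pump, 0.933-fold (0.815 to 1.07) of NI. Cxcl15, the lung chemokine, at 6843 and 4091 CPM (0.598-fold, 0.575 to 0.622), and Il33, an alarmin, at 375 and 204 (0.545-fold, 0.456 to 0.650) lay lowest with Hc, complement C5 (0.552-fold, 0.495 to 0.615). Outside the list, Lrg1 (815 and 303 CPM, 0.372-fold), Itih4 (0.302-fold) and Tmem213 (0.100-fold) were the lowest by the naming rule.

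In alveolar fibroblast-like barcodes matrix genes were mostly below the NI level. Of 19 measured genes 1 was at least 2-fold higher (Dcn, 9 and 23 UMIs, 2.05-fold, 0.913 to 5.03) and 1 at least 2-fold lower, near the backgrounds of 3.38% and 2.13%, and 15 were below 1, with a median log2 ratio of -0.25. Eln, elastin, had 749.7 and 355 CPM (0.473-fold, 0.376 to 0.594), and the fibrillar collagens Col1a1 and Col3a1 had 853 and 463 (0.543-fold, 0.442 to 0.666) and 1049.6 and 578 (0.551-fold, 0.458 to 0.661). Lox, the collagen cross-linking oxidase, was 1.70-fold higher (1.11 to 2.63). Mmp3, a matrix protease, and Spon2 were 0.169-fold and 0.219-fold.

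Genes of the pathway of TGF-beta, the main profibrotic cytokine, were past 2-fold about as often as all genes. Over all barcodes 1 of 20 pathway genes was past 2-fold higher (background 3.95%) and 1 past 2-fold lower (background 4.08%), with a median log2 ratio of 0.28, and 0.04 with fixed cluster weights. The ligand gene Tgfb1 had 71.6 and 135 CPM (1.89-fold, 1.65 to 2.15), and was 3.34-fold higher in capillary endothelial-like (1.89 to 6.19) and 3.25-fold in conventional dendritic 2-like barcodes (1.90 to 5.62). The receptor Tgfbr2 was 1.31-fold (1.14 to 1.5). Among targets, Thbs1, an activator of latent TGF-beta, was 2.17-fold higher (1.93 to 2.45), and Ctgf was 0.421-fold (0.333 to 0.529). Fn1, fibronectin, was 4.76-fold higher in Ptprc-positive barcodes (4.10 to 5.53), but 0.975-fold in alveolar fibroblast-like (0.821 to 1.16) and 1.03-fold in alveolar macrophage-like barcodes (0.824 to 1.30).

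Lymphoid classes had their own leading genes. In B-like barcodes S100a6, a calcium-binding protein, had 280.3 and 1268 CPM (4.52-fold, 3.66 to 5.62) and Vim, vimentin, 357 and 843 (2.36-fold, 1.90 to 2.93), while Lamb3 had 197 and 61.3 (0.311-fold, 0.160 to 0.559). In T-like barcodes Hivep2 was 3.67-fold (1.99 to 7.12), Atp11b, a lipid flippase, 2.73-fold (1.98 to 3.82) and Lgals1, galectin-1 of activated T cells, 2.45-fold higher (2.07 to 2.90), the last of which was 0.938-fold when clusters were made on 2000 variable genes. The 3 lowest genes there, Krt15, Lgals7 and Krt13 (148, 105 and 52 NI UMIs), are keratinocyte genes, and the 3 lowest of the conventional dendritic 2-like class, Tbata, Ccl25 and Krt18 (313, 197 and 183 NI UMIs, all 0 in FLASH), include thymic epithelial genes. In NK-like barcodes Nfkbia, the NF-kB inhibitor, was 2.95-fold (1.88 to 4.74) and Ccl4 1.96-fold higher (1.51 to 2.56), and Itgb7, a homing integrin, 0.304-fold (0.128 to 0.646).

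Genes of dividing cells were lower over all barcodes. Of 18 measured G2/M genes 12 were past 2-fold lower (background 4.08%) and 0 higher (background 3.95%), with a median log2 ratio of -1.28, and -0.53 with fixed cluster weights. Top2a, the mitotic topoisomerase, had 24.1 and 9.41 CPM (0.391-fold, 0.274 to 0.550) and Cdk1 14 and 3.39 (0.242-fold, 0.135 to 0.413). All 19 measured S-phase genes were below 1, with 7 past 2-fold lower and a median of -0.75. Within T-like barcodes, the class with most measured G2/M genes, the direction was the other way: 2 of 5 were past 2-fold higher (background 1.63%) and 0 lower (background 5.41%), with Birc5, survivin, at 25.6 and 56.0 (2.18-fold, 1.18 to 4.16) and Ube2c at 35.6 and 78.4 (2.20-fold, 1.31 to 3.77). S-phase genes in that class lay lower, with 8 of 10 below 1, 1 past 2-fold lower, 0 higher and a median of -0.20. Few dividing barcodes were present. With clusters made on variable genes, an unnamed cluster led by Ube2c, Top2a and Birc5 held 10 NI and 14 FLASH barcodes. The precursor filter had also removed 470 NI and 7 FLASH barcodes. The values without that filter, and so its part in them, are not given here. In Ptprc-positive barcodes the G2/M median was -0.89 as counted, -0.52 without cluster 12 and the thymic or keratin barcodes, and 0.25 with fixed cluster weights over 10 clusters, which also drop cluster 12.

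Few genes differed in one direction in every class. Of 2351 genes with at least 20 UMIs in 6 or more classes, 6 (0.255%) were at least 1.5-fold higher in every class measured and 1 (0.0425%) at least 1.5-fold lower. Cebpb, Cdkn1a, S100a8, a neutrophil protein, Cbr2, a carbonyl reductase of airway and AT2 cells, and the haemoglobin gene Hbb-bs were higher in all 8. Hba-a1, also a haemoglobin gene, was measured in 6 and was higher in each of those. Vps37b, a subunit of the sorting complex ESCRT-I, was the lower one, with 333 and 123 CPM over all barcodes (0.370-fold, 0.337 to 0.406) and 1158 and 767 in T-like barcodes (0.662-fold, 0.587 to 0.746).

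Transcripts of red cells and of abundant lung cells were also higher in classes named for other cells. Hbb-bs had 26.2 CPM in NI and 562 in FLASH over all barcodes, and was carried by 100 and 586 barcodes. In NK-like barcodes it had 0 UMIs in NI and 2266 in FLASH, carried by 15 of 63 barcodes, of which 1 held 496. The measured haemoglobin genes summed to 34.8 and 57010 CPM in that class, and to 61.25 and 248 in the T-like class. Erythroid markers had the second-highest score in the NK-like cluster, after NK markers. All other NK-like levels in FLASH are CPM over totals that include these UMIs. S100a8 had 27.1 and 149 CPM in T-like and 22.2 and 182 in AT2-like barcodes (5.52-fold and 8.19-fold), and the genes of AT2 function had median log2 ratios of 0.81 in T-like and 1.88 in capillary endothelial-like barcodes. The protocol in the labels included a red cell lysis step. Whether erythroid barcodes within a class or free RNA gave such levels was not tested. The part of free RNA in the low levels of Cebpb in lymphoid classes (112 CPM in T-like FLASH barcodes) was not tested either.

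**Figure D5:**
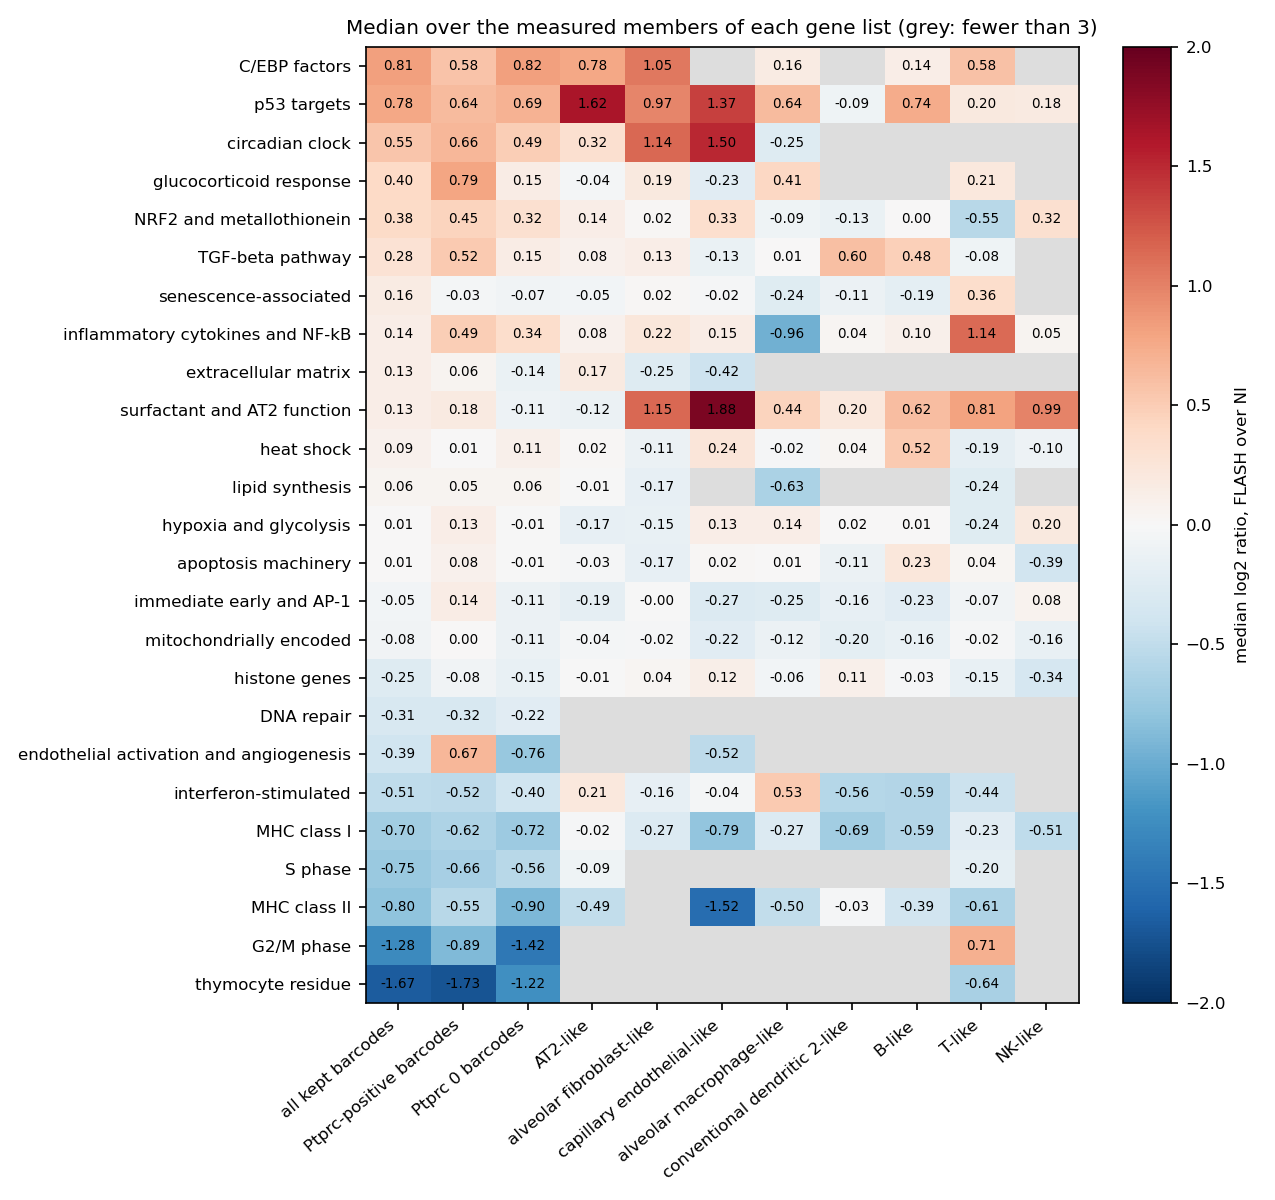
Median log2 ratio of FLASH over NI (colour and printed value) over the measured members of 25 gene lists (y axis) in 3 populations and 8 classes (x axis); grey cells had fewer than 3 measured members, and haemoglobin, at 4.93 over all barcodes, is left out. The p53 row is highest in AT2-like barcodes (1.62) and the MHC class II row lowest in capillary endothelial-like barcodes (-1.52).

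Lists for most other stress responses lay near the median of all genes, -0.01. Over all barcodes 0 of 21 immediate early genes, 0 of 16 heat shock genes, 0 of 17 apoptosis genes, 0 of 17 genes of hypoxia and glycolysis and 0 of 20 lipid synthesis genes were past 2-fold in either direction, with medians of -0.05, 0.09, 0.01, 0.01 and 0.06. Beside backgrounds of 3.95% higher and 4.08% lower, genes of DNA repair had a median of -0.31 with 2 of 18 past 2-fold lower, and the 13 mitochondrially encoded genes one of -0.08. Interferon-stimulated genes had a median of -0.51, with 4 of 24 past 2-fold lower and 0 higher. Of 18 senescence-associated genes 1 was past 2-fold higher (Mmp2, a matrix protease, 46.9 and 111 CPM, 2.36-fold, 2.02 to 2.77), near the background, with a median of 0.16, and -0.18 with fixed cluster weights. Mmp2 was among the 10 leading genes of unnamed cluster 5, which held 35 NI and 198 FLASH barcodes, and the part of that cluster was not tested. Of 18 genes of the NRF2 response and metallothioneins, which buffer oxidants and metals, 17 were above 1 but 0 past 2-fold, with a median of 0.38, and 0.07 with fixed cluster weights. In T-like barcodes 9 of 12 were below 1, with a median of -0.55. Mt1 had 727 and 1224 (1.68-fold, 1.61 to 1.75) and Hmox1, haem oxygenase, was 1.81-fold higher (1.48 to 2.23). Of 12 genes of the glucocorticoid response 10 were above 1 and 0 past 2-fold, with a median of 0.40, and 0.13 with fixed cluster weights.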

How the data were processed

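The authors deposited UMI counts per gene and barcode for 3 libraries, whole numbers with no normalization. They were made with Cell Ranger 2.0 on mm10, per the submitters' processing notes. Lungs were dissociated, passed through 100 and 40 µm filters and loaded on the 10x Genomics system, per the labels' protocols. Counts were summed over barcodes and scaled to CPM (per 1000000 UMIs). Ratios carry exact conditional binomial, levels exact Poisson, shares Clopper-Pearson and differences Newcombe intervals, at 95%, and a library at 0 was set to 3 counts. Genes with at least 30 UMIs over both libraries were measured. Kept barcodes were clustered on the marker genes (30 components, 15 neighbours, Leiden resolution 1), and 8 classes with at least 40 barcodes in each library were compared. Doublets were left in and dropped only as an alternative. Named were the 10 highest and 10 lowest genes of each population and 3 of each in each class, by the interval bound nearest to 1, with at least 30 UMIs in the higher library, leaving out ribosomal, mitochondrial, haemoglobin, receptor, sex-linked and predicted genes, and the most abundant or most shifted members of 26 lists. Other list members named were chosen after their values were seen. Some genes that the rule names are not reported here. Members and lists were chosen with earlier results of these data known. The interval code was tested on simulated data. Python 3.11.15, scanpy 1.11.5, scipy 1.17.1, R 4.3.3 and edgeR 4.0.16 (only for TMM scaling) were used. Depth and precision are given with the values. Alternatives varied filters, scaling, gates and cluster weights.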

Additional observations from a re-analysis of the deposited data

Results flagged for a closer look

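In 7 genes the difference lay in opposite directions in Ptprc-positive and Ptprc 0 barcodes, past 2-fold at both interval bounds. The difference between the populations was not tested. Scgb3a1, Bpifa1, Bpifb1 and Reg3g, secretory genes of the airway, were 26.0-fold, 10.7-fold, 9.45-fold and 22.6-fold of NI in Ptprc-positive barcodes and 0.272-fold, 0.175-fold, 0.288-fold and 0.433-fold in Ptprc 0 barcodes. Retnla, a gene of airway epithelium and alternatively activated macrophages, was 4.62-fold and 0.361-fold. Ngp was 0.0586-fold (44 and 2 UMIs) and 257-fold (1 and 356 UMIs). Ccl21a, a lymphatic chemokine with near-identical copies in the genome whose reads cannot be told apart here, was 0.128-fold (222 and 22 UMIs) and 3.11-fold (331 and 1424 UMIs).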

How the results depend on the processing

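No paired analysis was possible because each group was 1 library, so no pair could be told from the group. Without the precursor filter the 2-fold counts were 2153 over all barcodes (1117 higher, 1036 lower), 2292 in Ptprc-positive (922 and 1370) and 1352 in Ptprc 0 barcodes (674 lower). With at least 10 UMIs they were 1687 (797, 890), 1663 (693, 970) and 1596 (818, 778), and with at least 100 UMIs 442 (212, 230), 256 (137, 119) and 346 (192, 154), since fewer or more genes enter. With fixed cluster weights over the larger clusters they were 379 (141, 238) over all and 458 (210 higher) in Ptprc 0 barcodes. The mean over barcodes gave 753 higher over all. Leaving out the 3 leading barcodes of each gene, an alternative chosen after seeing the data, gave 784, 520 and 839 higher, and 61.5%, not 49.2%, of calls over all barcodes were then higher, against 37.2% with fixed cluster weights. In Ptprc 0 barcodes that share was 56.9%, 71.5% without the 3 leading barcodes, 45.9% with fixed cluster weights and 47.4% with the gate read after thinning, and in Ptprc-positive barcodes it was 43.7%, and 54.4% with that gate. The difference in the Ptprc-positive share was -20.4 points without the precursor filter and -3.23 after thinning, that of B-like barcodes -7.33 and that of alveolar fibroblast-like barcodes 5.07 without the filter, and that of T-like barcodes -10.3 (variable-gene clusters), -8.40 (at least 500 genes) and -11.6 (no precursor filter). Of log2 ratios at least 1.5-fold from 1, those that changed sign in Ptprc-positive barcodes were, with fixed cluster weights, Bpifa1 -0.089, Ccl21a 1.40, Prg4 -0.38, Reg3g -1.79 and the G2/M median 0.25, without 3 leading barcodes Bpifa1 -0.50, Ccl21a 1.2 and Reg3g -0.63, and with the gate read after thinning Scgb3a1 -0.27 and the G2/M median 1.15. Smaller list medians crossed 0 too, among them inflammatory (0.49 to -0.04), immediate early (0.14 to -0.16), DNA repair (-0.32 to 0.06), lipid synthesis (0.05 to -0.21) and senescence (-0.03 to 0.56) with fixed cluster weights. Lgals1 in T-like barcodes was -0.092 with variable-gene clusters. The cause was not tested. Removal of cluster 12 and the keratin or thymic barcodes, also chosen after seeing the data, gave 866, 652 and 796 calls.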
